A study of Danio rerio with 4 samples.

Results

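The genes described here are those of innate immune sensing, cytokine signalling and the interferon response in the livers of zebrafish larvae. They were chosen by gene symbol: every gene whose name begins like that of a Toll-like receptor, an adaptor or kinase downstream of it, an NF-kB subunit or inhibitor, a TNF, interleukin, chemokine or interferon family member, an interferon regulatory factor, a JAK, a STAT or a SOCS protein, or 1 of a few sensors and effectors, leaving out reln, the gene for the matrix protein reelin. The rule found 118 of 11021 genes. RefSeq's current gene table holds 296 symbols that match the rule, so the 118 are only a part of the genes of this kind. The rule used symbols and not values, though it was set with earlier results of these data known.

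The study set livers of larvae carrying Tg(fabp10:has.UHRF1-GFP), in the line its design text calls high, against livers of age-matched larvae carrying Tg(fabp10:nls-mCherry), all at 5 days post fertilisation (dpf). The fabp10 promoter is active in hepatocytes, so both transgenes act there, while RNA was taken from whole livers with their other cells. UHRF1 helps copy DNA methylation after replication by bringing DNMT1 to hemimethylated sites. The labels name 2 libraries of polyadenylated RNA per group, and the values below are those of A and B, the 2 libraries of the UHRF1-high group. The mCherry libraries were not analysed here, so no value below is a change caused by UHRF1, and no test between groups was possible. How many larvae made up a library is not labelled, nor is the clutch of origin of A or B. The design text speaks of 2 batches without assigning the libraries to them. The human transgene was not analysed here.

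Innate immune cells and hepatocytes recognise microbes through membrane receptors, such as the Toll-like receptors, and through sensors in the cytosol. The receptors pass the signal through adaptors such as MyD88 and kinases of the IRAK and RIPK families to NF-kB and to interferon regulatory factors, which switch on genes for cytokines, chemokines and interferons. Most cytokine receptors then signal through JAK kinases and STAT transcription factors, and SOCS proteins, induced by STATs, close the loop. In the liver this system is known for the acute phase response, in which interleukin 6 acts on hepatocytes through its receptor, gp130 and STAT3.

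The values are quantile-normalised by the authors, so a value reports the rank of a gene within its library, and sequencing depth is unknown. No source used here says whether transcript length was taken into account, so a level can be compared between libraries for the same gene but only loosely between genes. The 14 hepatocyte markers, led by apoa1b, apoa2 and fabp10a, lay at a median rank percentile of 98.9 in A and 98.8 in B. Of these 14, 4 were at least 2-fold higher in A and 0 in B: tfa (12758 in A, 2207 in B), serpina1 (4796 and 1567), gc (610 and 84.9) and hpx (8.77 and 0.833). The libraries also differed in markers of other tissues: 22 of 22 skeletal muscle markers above the filter described below were at least 2-fold higher in B, with a summed value over all 25 measured of 540 in A and 4706 in B, led by actc1b, pvalb2 and acta1a. In the other direction, 14 of 16 exocrine pancreas markers, led by try, ctrb1 and ela2, were at least 2-fold higher in A, with sums of 11669 and 1357. The part of these tissues in the differences given below was not tested.

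Immune signalling genes had low ranks in both livers. Their median value was 2.16 in A and 2.25 in B, against 4.36 and 4.41 over all genes, and their median rank percentile was 36.8 in A and 37.3 in B. Of the 118 genes, 14 in A and 20 in B lay at or above the 60th percentile, and 2 in each library lay above the 90th. A mean value of at least 10 was reached by 14 of them, or 11.9%, compared with 33.9% of all genes. Together they held 0.0699% of the summed value in A and 0.0750% in B. The filter used for all differences between libraries, a mean of at least 1, was passed by 82 of the 118 genes (69.5%) and by 76.1% of all genes. Of all genes above the filter, 7.07% were at least 2-fold higher in A and 6.83% in B, on the scale of value + 1 used for every fold below. By any amount, 48.6% were higher in A and 51.0% in B. The counts given for each role and list stand against these shares.

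**Figure D1:**
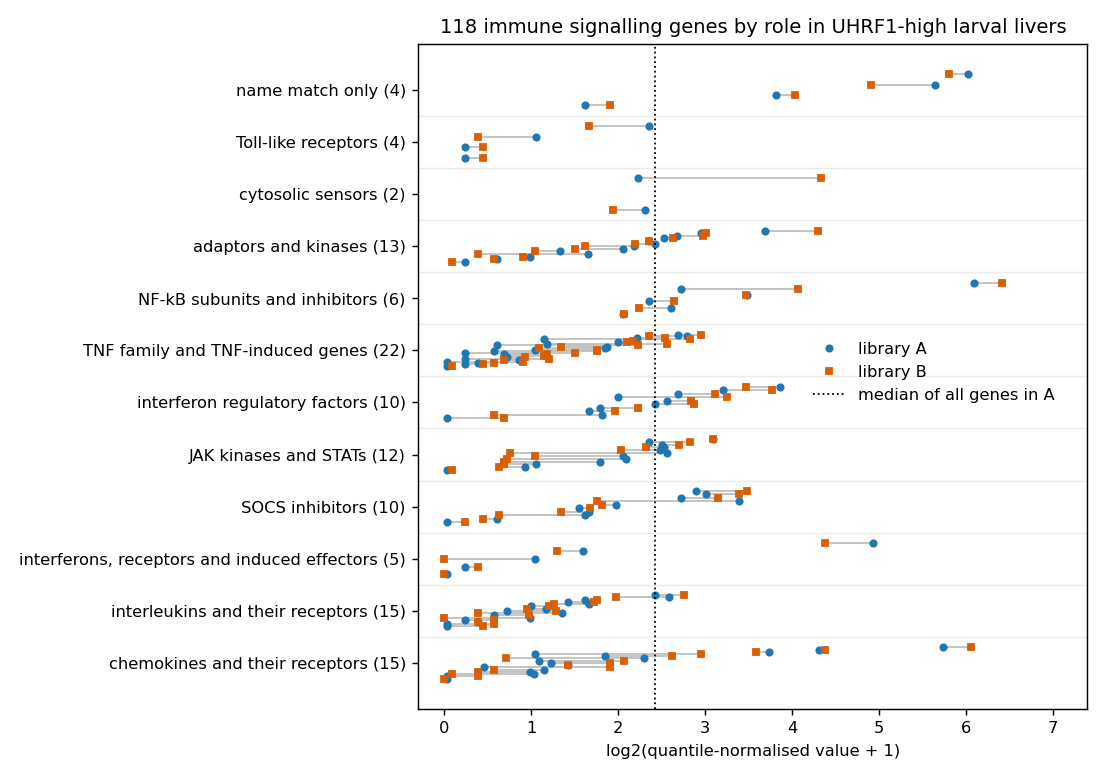
Values of the 118 immune signalling genes in library A (circles) and B (squares) as log2(quantile-normalised value + 1), 1 line per gene, grouped by role with the number of genes in brackets; the dotted line marks the median of all genes in A. Most genes lie to the left of the median, and 14 reach a mean value of 10.

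**Figure D2:**
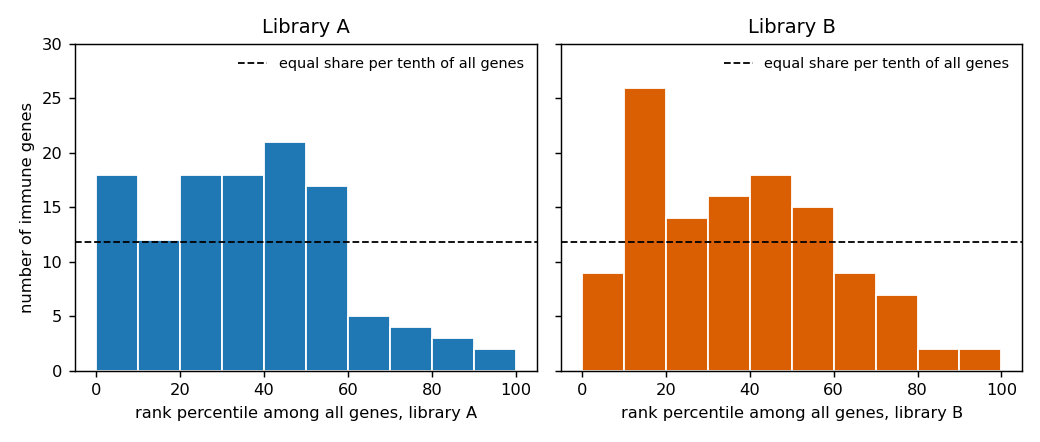
Number of immune signalling genes in each span of 10 rank percentiles of all 11021 genes, for libraries A and B; the dashed line is the number per span if the genes were spread evenly. The genes thin out above the 60th percentile, where 14 lie in A and 20 in B.

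Of the receptors that sense microbes, 4 Toll-like receptor genes were measured and 1 passed the filter. This was tlr5b, whose protein family recognises bacterial flagellin, at 4.12 in A and 2.16 in B (mean 3.14 ± 1.39, SD, n = 2). The gene for the double-stranded RNA receptor, tlr3, had 1.08 in A and 0.304 in B. The fish receptor genes tlr18 and tlr21 both had 0.183 in A and 0.365 in B, values shared with 423 genes in A and 155 in B. Values this low have few possible levels, so the difference between them is not resolved.

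In the cytosol, mavs, the mitochondrial adaptor of the RNA helicase sensors, had 3.95 in A and 2.84 in B, a difference of less than 2-fold. The gene pycard encodes ASC, the adaptor that assembles inflammasomes (chromosome 16, 44753603 to 44759898 in Zv9). It had 3.69 in A and 19.1 in B, 4.28-fold higher in B, the widest gap among the immune genes above the filter on the scale of value + 1. As a plain ratio of B to A it was 5.17, and 7 immune genes with lower values, such as relt and ccl25b, had larger plain ratios. The inflammasome protease gene caspa, which lies outside the name rule, had 3.76 in A and 7.69 in B. The interleukin 1 gene il1b, whose product inflammasomes mature, stood at the lowest value of library A, 0.0203, and at 0.365 in B. The helicase sensor genes ddx58 and ifih1 and the adaptor gene tirap were not analysed here.

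The signalling chain from MyD88 to NF-kB was measured at similar values in both livers. The adaptor gene myd88 had 6.71 in A and 7.06 in B, the kinase gene irak4 4.77 and 5.21, and the ubiquitin ligase gene traf6 4.12 in both. Each of these genes differed by at most 1.08-fold between the libraries. Another TRAF adaptor gene, traf4b, had 11.9 in A and 18.7 in B, and its relative traf4a had 5.41 and 6.88. Of the 13 adaptor and kinase genes 10 passed the filter, and 1 of these differed by at least 2-fold: traf3, an adaptor of the pathway to interferon, with 2.14 in A and 0.304 in B. The list also holds genes better known for other tasks, such as ripk4, a kinase of the epidermis, at 4.36 and 3.57, and traf3ip1, a component of cilia, at 0.518 and 0.488.

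All 6 measured genes for NF-kB subunits and their inhibitors passed the filter. The subunit genes differed little: nfkb2 had 10.1 in both libraries, rel had 3.16 in A and 3.19 in B, and rela had 5.099 in A and 3.73 in B. The genes for IkB alpha, which holds NF-kB in the cytosol and is itself an NF-kB target, had a wider span. The gene nfkbiab (chromosome 17, 12806090 to 12810147) had 67.5 in A and 84.2 in B (mean 75.8 ± 11.8, SD, n = 2) and lay above the 90th percentile in both libraries. Its relative nfkbiaa had 5.61 in A and 15.8 in B, 2.55-fold higher in B. Another inhibitor gene, nfkbie, had 4.12 in A and 5.24 in B.

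Pathway genes with other names gave a similar picture. Of 36 measured NF-kB and TNF signalling genes outside the name rule, 31 passed the filter, 16 were higher in A and 15 in B, and the median difference on the log2 scale was 0.0096 (A minus B). A 2-fold difference was reached by 1 of them, the alarmin gene hmgb1a, with 15.3 in A and 39.3 in B. The ubiquitin-conjugating partner genes ube2v1 (196 in A, 336 in B) and ube2v2 (107 and 95.1) and the Toll receptor inhibitor gene tollip (81.2 and 102) were the 3 with the highest means. The kinase complex that frees NF-kB was represented by chuk with 14.3 in A and 11.6 in B and ikbkg with 8.18 and 11.96, while ikbkb had 0.183 in A with a listed 0 in B.

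Of the TNF family genes above the filter, more were higher in library B than in A, in part through the filter itself. The TNF family and TNF-induced genes numbered 22, and 13 passed the filter. Of these 13, 9 were higher in B and 4 in A, beside 51.0% and 48.6% of all genes. At least 2-fold higher in B were 5 genes and in A 0. The gene tnfaip6, which encodes a secreted hyaluronan-binding protein, had 1.22 in A and 6.099 in B. The ligand gene tnfsf12, which encodes TWEAK, had 1.26 in A and 4.92 in B, and tnfsf10, a gene for the death ligand TRAIL, had 0.518 and 3.69. The receptor genes tnfrsf9a (0.487 in A, 2.38 in B) and relt (0.183 and 1.83) completed the 5. These 5 genes had low values in A, each at most 1.26 and 3 of them under 1, so the size of their folds is coarse. The 3 under 1, tnfsf10, tnfrsf9a and relt, passed the filter only through B. Their direction in the count of 9 was therefore fixed by the filter.

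The TNF receptor genes nearest to classical TNF signalling differed less. The gene tnfrsf1a, for the main TNF receptor, had 3.55 in A and 3.51 in B, and tnfrsfa, a fish receptor gene, had 5.91 and 4.12. The gene tnfrsf1b was near the lowest values with 0.304 in A and 0.487 in B. The cytokine gene tnfb had 0.651 in A and 0.894 in B, below the filter. The gene tnfaip1, whose product serves a ubiquitin ligase, had 5.45 and 6.75, and the orphan receptor gene tnfrsf19 had 3.63 and 4.79.

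The interferon axis was measured from its receptors to its effectors, and the name rule took in no gene for an interferon itself. The effector genes taken by the name rule ranged from isg15, with a mean rank percentile of 80.8, to mxa, with 9.77. Type I interferons act in zebrafish through receptors that share the chain encoded by crfb5, which lies outside the name rule and had 32.5 in A and 68.6 in B. The partner chain genes crfb1 and crfb2 had 2.45 and 0.0203 in A and 1.40 and 0.0609 in B. The kinase gene tbk1, which activates interferon regulatory factors, had 15.9 in A and 18.3 in B. The interferon receptor gene ifnlr1 had the lowest value of its library both times, 0.0203 in A and 0 in B.

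There were 10 genes for interferon regulatory factors, transcription factors that drive interferon and interferon-induced genes, and 9 passed the filter. Of these 7 were higher in B and 2 in A. The gene irf5 had 13.6 in A and 10.1 in B. The virus-response factor gene irf3 had 2.51 in A and 0.488 in B, a value under 1, so the size of its fold is coarse. The related factor gene irf7 had 4.35 and 6.32, 1.37-fold higher in B. The gene irf8, which directs macrophage formation in zebrafish, had 2.996 in A and 8.53 in B, 2.38-fold higher in B. The gene irf2, for a repressor of interferon-induced genes, had 5.45 in A and 7.67 in B. It and the remaining genes above the filter, irf9, irf1b and irf2a, differed by 1.21-fold to 1.36-fold, each higher in B.

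Type I interferon signals through a complex that holds STAT2 and IRF9. In library A, stat2 and irf9 both had 4.90. In library B, irf9 had 6.16, while stat2 had 0.691. Thus stat2 (chromosome 6, 39054538 to 39089819) was 3.49-fold higher in A, a size that rests on a value under 1 in B, and irf9 was 1.21-fold higher in B.

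Among interferon-induced effectors, isg15, the gene for a ubiquitin-like modifier, had 29.5 in A and 19.8 in B (mean 24.6 ± 6.87, SD, n = 2). The antiviral genes rsad2, which encodes viperin, and mxa were low, rsad2 with 1.06 in A and a listed 0 in B and mxa with 0.183 and 0.304. The nuclease gene isg20l2, placed in this role by its name alone, had 2.03 in A and 1.45 in B. The list of interferon pathway genes outside the name rule had 32 measured genes. It includes vip, the symbol of a neuropeptide gene and not of viperin, which lay below the filter (0.304 in A, 0.365 in B). Of the 32 genes, 19 passed the filter, 7 were higher in A and 12 in B, and the median difference was -0.19 (log2, A minus B). At least 2-fold higher in B were 4 of them: crfb5, the lysosomal thiol reductase gene ifi30 (44.1 in A, 96.5 in B), and the genes the table calls zgc:123068 (10.7 and 43.9; ifi27.1 in RefSeq) and zgc:92791 (0.609 and 2.38; psmb10 in RefSeq, an immunoproteasome subunit gene). The ubiquitin-conjugating enzyme gene ube2l3b, with the highest mean of the list, had 129 in A and 168 in B. The ubiquitin ligase gene herc3 was at least 2-fold higher in A, with 2.01 and 0.305.

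JAK and STAT genes numbered 12, of which 9 passed the filter, and their direction was mixed, with 6 higher in A and 3 in B. At least 2-fold higher in A were 4 genes and in B 0. Beside stat2, these were stat5.1 (chromosome 3, 16749222 to 16975773) with 3.24 in A and 0.651 in B, stat5.2 (chromosome 12, 14670439 to 14728139) with 2.45 and 0.609, and stat6 with 3.16 and 1.06. STAT5 proteins carry growth hormone, prolactin and several cytokine signals, and STAT6 those of interleukins 4 and 13. In library B, 3 of these 4 genes had values under 1, where a value is shared by 31 to 63 genes, so the size of the fold is coarse. These 3 passed the filter only through A, so their direction in the count of 6 was fixed by the filter. The genes stat5.1 and stat5.2 are related copies whose shared reads could have been split or assigned in ways not given in the sources used here.

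The kinases above the STATs were closer between the libraries. The gene jak1 had 4.12 in A and 6.099 in B, jak2a 7.487 and 7.497, and jak2b 4.77 and 3.997, all less than 2-fold apart. The gene stat3 had 4.59 in A and 3.08 in B, 1.37-fold higher in A. The kinase gene tyk2 was not analysed here. The short entry stat7 overlaps the end of stat6 by 54 bases on chromosome 23, and RefSeq lists stat7 as an older name of stat6, so its values of 0.894 and 0.549 are not those of a separate STAT gene.

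The SOCS genes, feedback inhibitors of JAK signalling, numbered 10, and 8 passed the filter, 4 higher in each library. The STAT3 target genes socs3a (6.46 in A, 10.1 in B) and socs3b (7.06 and 9.51) and the interferon-induced inhibitor gene socs1a (5.61 and 7.83) were each higher in B by less than 2-fold. In the other direction, socs5a had 2.08 in A and 0.549 in B, 1.99-fold higher in A and just short of the threshold. Its value in B was under 1, so the size of this fold is coarse. The gene socs8 (chromosome 11, 18459012 to 18464081) had 9.51 in A and 2.38 in B, 3.105-fold higher in A. RefSeq lists it now as cishb, a copy of the gene for CIS, which in mammals is induced by STAT5. The other copy, cish, lies outside the name rule and had 57.2 in A and 26.8 in B, also at least 2-fold higher in A.

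Of 36 measured JAK-STAT and cytokine receptor genes outside the name rule, 21 passed the filter, 15 were higher in A and 6 in B, and the median difference was 0.29 (log2, A minus B). Beside cish, the gene ebi3, which encodes a subunit shared by interleukins 27 and 35 in mammals, was at least 2-fold higher in A, with 82.5 in A and 29.1 in B. The survival gene mcl1b was at least 2-fold higher in B with 27.4 and 59.5, while mcl1a had 129 in A and 106 in B. The growth hormone receptor genes ghra (0.487 in both) and ghrb (2.95 and 2.51) did not reach 2-fold. Exocrine pancreas markers moved towards A as well, by a median of 3.14 on the log2 scale, and their part in these differences was not tested.

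The interleukin 6 axis of the acute phase response was measured from its receptor to its SOCS inhibitors. The ligand gene il6 was not analysed here. The receptor gene il6r had 5.02 in A and 2.91 in B, and il6st, the gene for gp130, had 2.16 and 1.40. With jak1, stat3, socs3a and socs3b above, none of these genes reached a 2-fold difference. Their rank percentiles ran from 36.8 (il6st) to 59.6 (socs3b) in A. In B they ran from 29.5 (il6st) to 67.0 (socs3a). Of all 15 interleukin and receptor genes 8 passed the filter, 3 higher in A and 5 in B, and 0 were at least 2-fold apart. The gene il13ra1, for a chain of the interleukin 13 receptor, had 4.36 in A and 5.73 in B. The gene il17rd, known for damping FGF signals, had 2.08 and 2.38. The 7 genes below the filter included il4r (1.55 in A, 0.304 in B), il7r (0.183 and 0.487), il2rgb (0.304 in both), and il23r, with 0.976 in A and a listed 0 in B.

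Among cytokine genes, 3 chemokine ligand genes had mean values of at least 10. The gene the table calls cxcl-c5c (chromosome 5, 44515532 to 44522777; cxcl20 in RefSeq) had 52.2 in A and 65.6 in B (mean 58.9 ± 9.43, SD, n = 2). The gene cxcl-c13d (cxcl8b.3 in RefSeq, a relative of interleukin 8) had 18.9 in A and 19.8 in B, and ccl-c5a (ccl19a.1 in RefSeq) had 12.3 and 11.03. These 3 ligand genes differed by at most 1.25-fold between the libraries. Of the 15 chemokine and receptor genes 10 passed the filter, with 7 higher in B, 2 higher in A and 1, ccr12.3, identical at 1.67. The gene cxcl-c1c (cxcl18b in RefSeq) had 1.12 in A and 3.19 in B, 1.98-fold higher in B and just short of the threshold.

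The 2 genes of this role called at least 2-fold higher in B were a receptor gene and a ligand gene, set side by side here after the calls. The receptor gene ccr9a (chromosome 2, 32514766 to 32516752) had 1.06 in A and 6.71 in B, 3.75-fold higher. The gene ccl25b (chromosome 11, 6296270 to 6300267), for a ligand of CCR9 that guides lymphocytes to gut and thymus in mammals, had 0.366 in A and 2.75 in B, 2.75-fold higher. With a value under 1 in A, ccl25b passed the filter only through B, and the size of its fold is coarse. In the other direction, cxcl14 had 3.89 in A and 0.630 in B, and passed the filter only through A. The ligand genes cxcl12a (1.04 in A, 0.0609 in B) and cxcl12b (0.976 and 0.304), which guide migrating and blood-forming cells, lay below the filter. Their receptor gene cxcr4b had 1.34 in A and 2.75 in B, and cxcr4a had the lowest value of each library.

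The name rule also took in 4 genes of the IRF2-binding protein family, known as corepressors. The genes irf2bp2b (64.4 in A, 54.8 in B), irf2bp2a (49.2 and 29.0) and irf2bp1 (13.1 and 15.4) made up 3 of the 14 whose mean reached 10. The gene irf2bpl had 2.08 and 2.75. All 4 differed by less than 2-fold.

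Across the 82 immune signalling genes above the filter, 8 were at least 2-fold higher in A, or 9.76%, where the same was true of 7.07% of all genes. At least 2-fold higher in B were 10, or 12.2%, against 6.83% of all genes. The other 64 genes, 78.0%, lay within 2-fold, compared with 86.1% of all genes. By any amount, 34 of the 82 (41.5%) were higher in A and 47 (57.3%) in B, against 48.6% and 51.0% of all genes. Of the 18 genes at least 2-fold apart, 10 had a value under 1 in the lower library, 6 in B (stat2, stat5.1, stat5.2, cxcl14, irf3 and traf3) and 4 in A (tnfsf10, ccl25b, tnfrsf9a and relt), and the size of these folds is coarse. The median difference was -0.11 on the log2 scale (A minus B), against -0.015 for all genes. Each library here is a single sample, so these counts describe the spread between 2 liver samples of 1 group and have no test. The correlation of the 118 genes between the libraries was 0.860 (Pearson, log2 scale) and 0.813 (Spearman), across genes that are not independent replicates.

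**Figure D3:**
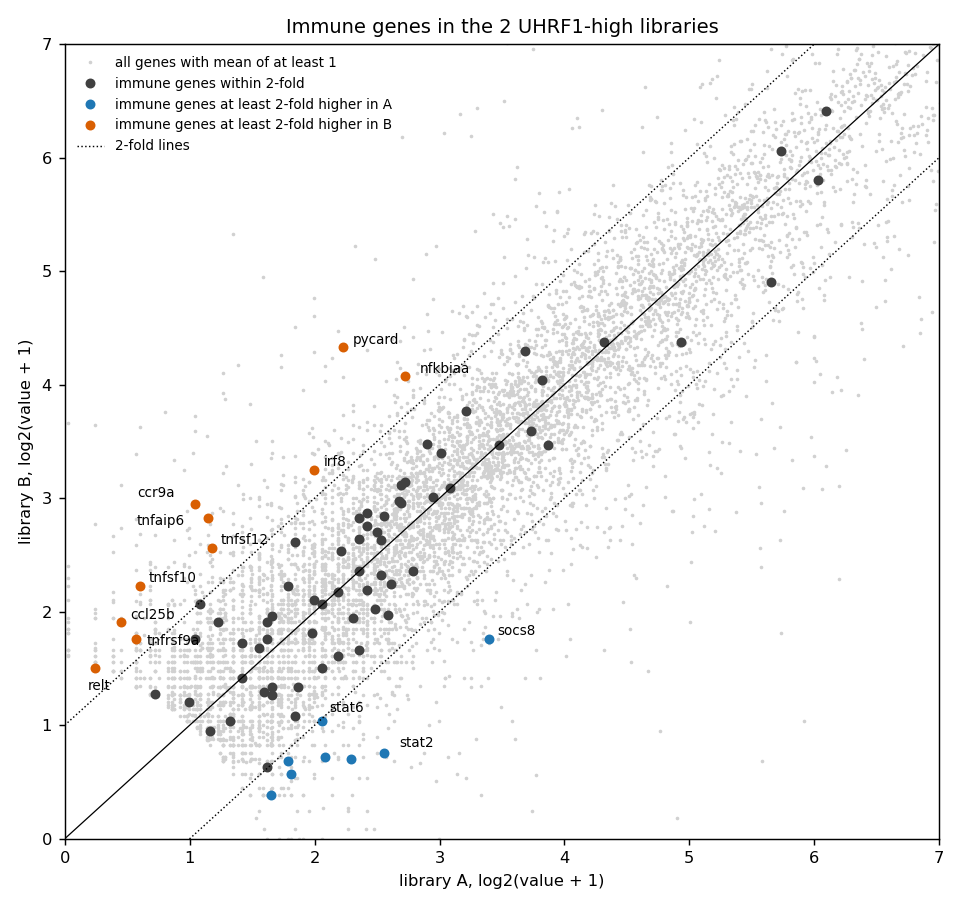
log2(value + 1) in library A (horizontal) and B (vertical) for all genes with a mean of at least 1 (grey; genes above 7 on either axis are not drawn) and for the 82 immune signalling genes above the filter, with the line of equality and dotted 2-fold lines. The 10 immune genes higher in B are named, as are 3 of the 8 higher in A; pycard lies farthest from the line towards B.

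The genes at least 2-fold higher in A or in B are given here by level, without a test. All 8 genes higher in A had a mean under 10, and 7 of them under 3: stat2, cxcl14, stat6, stat5.1, stat5.2, irf3 and traf3. Of the 33 immune genes with a mean from 1 to 3 these 7 made 21.2%, against 6.1% of all genes at that level, and 4, or 12.1%, were higher in B, against 8.13%. From 3 to 10, 1 of 35 immune genes was higher in A (socs8), against 5.7% of all genes, and 4 were higher in B (irf8, ccr9a, tnfaip6 and tnfsf12), against 6.52%. With a mean of at least 10, 0 of 14 were higher in A, against 8.57%, and 2 were higher in B (pycard and nfkbiaa), against 6.38%. Of the 7 genes higher in A with a mean under 3, 6 had a value under 1 in B. The 4 higher in B at that level had a value under 1 in A. These genes passed the filter only through the library where they were higher, and their folds are coarse.

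**Figure D4:**
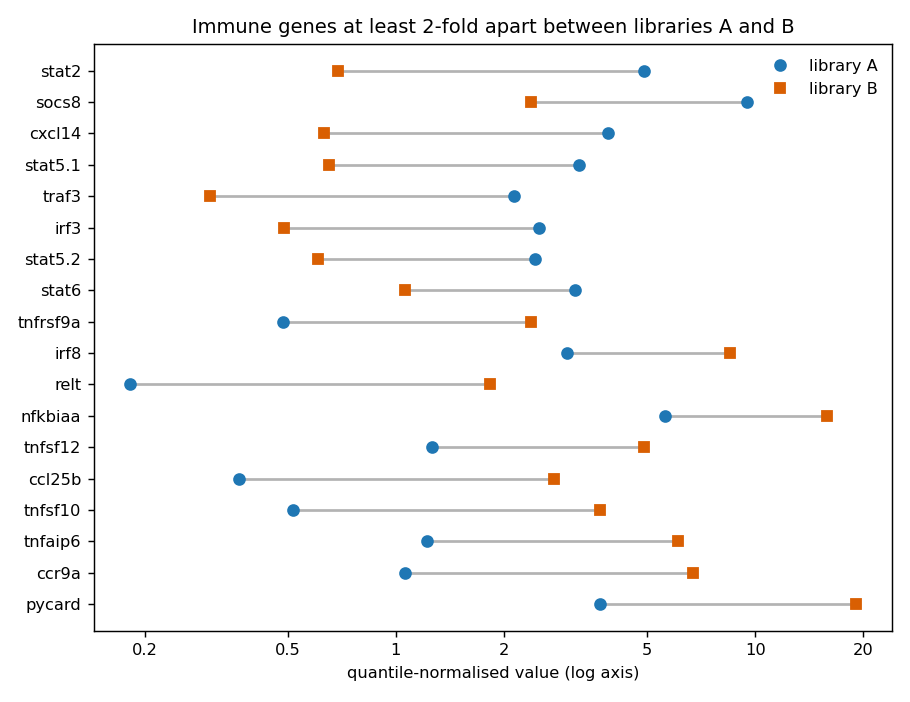
Values of the 18 immune signalling genes at least 2-fold apart between library A (circles) and library B (squares), on a log axis, ordered by their difference on the scale of log2(value + 1). The 8 genes higher in A include 4 STAT genes, and pycard at the bottom has 3.69 in A and 19.1 in B.

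Macrophage and pan-leukocyte markers were mostly higher in library B. The macrophage list had 14 measured genes, all above the filter and all higher in B, 5 of them by 2-fold or more. Their median was -0.71 (log2, A minus B) and their summed value 204 in A and 451 in B. Its defining gene mpeg1, for a macrophage perforin-like protein, had 3.404 in A and 17.8 in B, and the genes with the highest means were ctssb.1 (25.3 and 147), grn1 (59.9 and 95.8) and slc37a2 (36.9 and 58.3). Of 20 measured pan-leukocyte genes 14 passed the filter and 13 were higher in B, 8 at least 2-fold, with a median of -1.16 and sums of 85.7 and 233. Examples are the actin regulator genes arpc1b (11.2 in A, 42.9 in B) and coro1a (6.83 and 36.4), the Fc receptor chain gene fcer1gl (10.2 and 41.9) and spi1b, the gene for the myeloid transcription factor PU.1 (3.24 and 16.98).

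The neutrophil list was mixed, with 10 measured genes, 7 above the filter, 4 higher in A and 3 in B, and sums of 1297 and 336. Most of that sum comes from cpa5 (855 in A, 66.9 in B), which is also an exocrine pancreas marker, and alas1 (378 and 161), a heme synthesis gene. Also higher in A, by less than 2-fold, were lect2l (44.3 in A, 22.5 in B) and npsn (1.34 and 1.12). The 3 genes higher in B were the granule proteoglycan gene srgn (16.3 in A, 76.1 in B), the lysozyme gene lyz (0.609 and 4.16) and adam8a (0.651 and 2.57). Of the lymphocyte list 3 genes were measured, 0 of which passed the filter, with sums of 0.670 and 1.40, and 1 of the 3, il7r, is itself among the genes described here. Of all the measured leukocyte markers, csf3r stood at the lowest value of library A, and none was listed at 0 in B.

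The 10 immune genes at least 2-fold higher in B have, through how they were called, the direction of most macrophage and pan-leukocyte markers. The 8 immune genes at least 2-fold higher in A went the other way, as did 4 of the 13 TNF family genes above the filter. Skin epithelium markers were also mostly higher in B, with 12 of 15 above the filter, a median of -1.01 and sums of 507 and 975. The highest means were those of the keratin genes zgc:109868, itself slightly higher in A (183 in A, 158 in B), zgc:92533 (83.6 and 154) and krt4 (69.4 and 160). Endothelial markers, led by etv2, fli1a and clec14a, were higher in B for 11 of 13, by a median of -0.19, with sums of 66.1 and 89.1. Whether leukocytes, skin or muscle in the sample took part in the values of the immune genes was not tested, and in RNA from whole livers more cells of a type cannot be told apart from more RNA per cell.

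Zebrafish carry many immune genes in copies left by genome duplication or by later local duplication. Among the 118 are 14 pairs of genes related by name, and whether each pair arose in this way was not tested. Both genes of a pair passed the filter in 8 pairs. In 6 of these both genes were higher in the same library. The pair stat5.1 and stat5.2 was the 1 pair with both genes at least 2-fold apart, by 1.36 and 1.098 on the log2 scale (A minus B). Both IkB alpha genes were higher in B but by different amounts, with -1.35 for nfkbiaa and -0.32 for nfkbiab. The genes socs3a and socs3b were close, with -0.58 and -0.38. The pairs in opposite directions were il15 (0.21) with il15l (-0.21) and jak2a (-0.0017) with jak2b (0.21), all small.

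**Figure D5:**
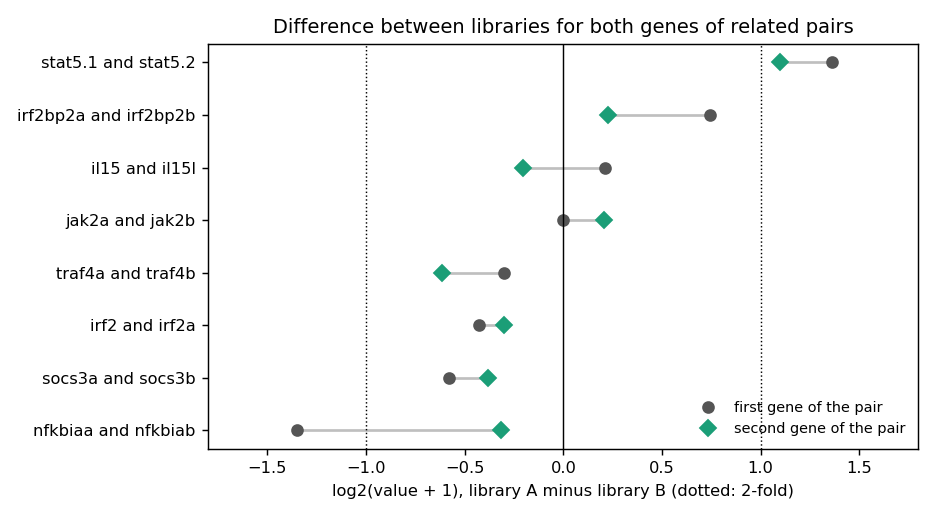
Difference between libraries, log2(value + 1) in A minus B, for the first (circle) and second (diamond) gene of the 8 related pairs in which both genes passed the filter; dotted lines mark 2-fold. In 6 pairs both genes lie on the same side of 0, and stat5.1 and stat5.2 lie together beyond 2-fold towards A.

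The 118 genes lay on 25 chromosomes, and 6 neighbouring pairs were within 100000 bases of each other. Neighbours did not always have like values. On chromosome 3 stat3 ends 22020 bases before stat5.1 begins, and stat3 had 4.59 in A and 3.08 in B where stat5.1 had 3.24 and 0.651. On chromosome 16 cxcr3.2 had 2.59 in A and 5.13 in B, while the receptor gene next to it, cxcr3.1, had 0.0203 and 0.304. Of the 118 genes, 28 overlap the span of another gene in the table, 19 of them only spans of over 1000000 bases. Among these are stat5.1, irf8 and tnfsf12, and whether the counting used strand is not given in the sources used here.

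The lowest values were heavily tied. In library A 36 of the 118 genes had values below 1, where all genes together take 41 distinct values, and 10 stood at the lowest value, 0.0203, a value held by 694 genes in all. In library B 41 lay below 1, and 4 were listed at 0: cxcr4a, ifnlr1, il23r and rsad2. For the 36 genes below the filter no difference between the libraries is drawn from these values.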

How the data were processed

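RNA from livers of 5 dpf larvae was extracted with Trizol, selected on poly-A beads, fragmented and ligated to bar-coded adapters, per the labels' protocols. The deposited signal values were quantile-normalised by the authors, as the table's name states. Per the submitters' processing notes CASAVA 1.7 and the genome build Zv9 (danRer7) belong to this processing. How reads were counted, with which annotation and in which unit before normalisation is not given in the sources used here. Depth is unknown, so no counting interval is given.

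The table has 2 value columns, matched by name to UHRF1-high A and B, and 0 other per-sample columns. The planned limma comparison with the control could therefore not be fitted. Genes were taken by symbol, of which 105 are current in RefSeq's GRCz12tu gene table and 13 were matched through an older symbol. Coordinates are the table's, with starts counted from 1. Levels are given per library, with the mean ± SD over n = 2 where stated. Differences are log2(value + 1), A minus B, for genes whose mean reached 1, with 2-fold as the threshold. This scale understates differences of low genes. Rank percentiles count all 11021 genes, ties at their middle rank. Named were genes whose mean reached 10, the 3 highest of each role and list, and those at least 2-fold apart. The values of some genes are not reported here, though counts include them. Other genes were added for their place in a pathway or beside a named gene, after their values were seen. The members, roles, lists and gene pairs were chosen with earlier results of these data known. The counting code was tested on simulated data. Alternatives changed the pseudocount, filter, scaling and membership. Python 3.11.15, numpy 2.4.6 and pandas 2.3.3 were used.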

Additional observations from a re-analysis of the deposited data

How the results depend on the processing

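The main values are 8 immune genes at least 2-fold higher in A, 10 higher in B, a median of -0.11 for log2 A minus B, and a median of the mean rank percentile of 35.0. The counts depended most on the pseudocount: with 10 instead of 1, the counts were 0 in A and 1 in B (pycard), and the median was -0.035; of all genes 2.24% and 1.60% then passed, so the shares fell for all genes too. With a pseudocount of 0.1, 10 and 13 immune genes (12.2% and 15.9%) passed, among them all 8 and all 10 of the main calls, against 10.6% and 10.2% of all genes. Keeping only the 14 genes whose mean reached 10, the counts were 0 in A and 2 in B, against 8.57% and 6.38% of all genes at that level, and the median -0.14. Leaving out members whose span overlaps another gene, an alternative chosen after seeing the data, gave a median difference of -0.038 and a median percentile of 33.6. The counts were then 6 and 8 of 60 genes (10% and 13.3%), against the main shares of 7.07% and 6.83% of all genes. Overlapping genes were not left out of these 2 shares, so the sets are not alike. Without the 4 genes of the IRF2-binding protein family, the only genes left out as matching by spelling, the median percentile was 34.5. With 1 library left out, it was 37.3 without A and 36.8 without B. Without a filter 9 and 10 of 118 genes passed (7.63% and 8.47%), against 5.86% and 5.71% of all genes. With each library divided by its median, 8 and 9 of 81 passed (9.88% and 11.1%), against 7.21% and 6.68%. The median difference kept its sign in all of these. The cause of these shifts was not tested. The stricter filter and the reduced membership also left fewer genes. No paired analysis was possible because no control library was analysed and the labels of the groups share no replicate number. Other settings for the comparison with the control were not run. With 2 libraries of unknown depth, differences between values under 1 are not resolved, and the 10 folds of at least 2 with a value under 1 on 1 side are coarse.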
